A study of Rattus norvegicus with 15 samples.

Results

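The methionine cycle and the balance between its liver form and its widely expressed form of methionine adenosyltransferase were followed in rat livers by RNA sequencing. The 9 genes were chosen by name: Mat1a, Mat2a, Mat2b, Ahcy, Gnmt, Bhmt, Cbs, Cth and Pemt. A gene was included when its symbol stood in the gene column of the count table, which held for 8 of the 9 genes among 32623 rows. Cth is not analysed here. All 8 genes passed the filter on low counts, together with 14417 genes in all.

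The 3 groups compared were of male, age-matched Wistar rats. Controls received no treatment. In the cirrhosis group carbon tetrachloride (CCl4), a solvent that damages hepatocytes, was inhaled 3 times a week for 12 weeks, with phenobarbital in the drinking water at 0.35 g/L. The cirrhosis & eplerenone group received the same CCl4 and phenobarbital. From week 8 to week 12 it also received oral eplerenone at 100 mg/kg, a blocker of the mineralocorticoid receptor, in hazelnut spread. Whether the other groups received the spread is not given in the sources used here, so eplerenone and spread cannot be told apart. CCl4 and phenobarbital were given together, so their effects cannot be told apart. Livers were taken 7 to 10 days after the last CCl4. The treatment plan of the paper places this after the end of treatment. The words under eplerenone therefore name the group here and not dosing at the time of sampling. Each library came from a different rat, and the rats were picked for sequencing according to how well cirrhosis induction or treatment had succeeded, which limits the groups as a picture of all treated animals. There were 4 control, 5 cirrhosis and 5 cirrhosis & eplerenone libraries. Control replicate 1 is not analysed here. The paper left out 1 control that its principal component analysis set apart from the other 4. The spread given for control is therefore that of the controls kept.

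Methionine adenosyltransferase joins methionine and ATP to form S-adenosylmethionine (SAM), the methyl donor of most cellular methylation reactions. Hepatocytes of the healthy adult liver mainly use the enzyme encoded by Mat1a, while Mat2a, with the regulatory subunit encoded by Mat2b, serves most other tissues and is known to gain over Mat1a in liver injury, regeneration and liver cancer. Methyl transfer leaves S-adenosylhomocysteine (SAH), which is split to homocysteine, and homocysteine is either remethylated to methionine or passed on to cysteine.

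The libraries held 16157491 to 21574767 counted reads, and 3 counts corresponded to 0.121 to 0.191 FPM. FPM stands here for counts per 1000000 of the library size after TMM scaling. TMM factors were 0.847 to 0.877 in control and 0.925 to 1.41 in the other libraries, with the highest value in cirrhosis & eplerenone replicate 3. On the first principal component of the 500 most variable genes, cirrhosis replicate 5 lay at 13, away from the other cirrhosis livers at -47.7 to -38.0, and cirrhosis & eplerenone replicate 3 lay at -42.6, among the cirrhosis livers, while the other eplerenone livers spread from -18.5 to 26.8 and controls from 44.3 to 50.6. Results are therefore also given without these 2 libraries where that changed a call or a direction. The tissue label was checked with 9 hepatocyte markers, whose summed level was 192960 to 224700 FPM in control, 154020 to 210300 FPM in cirrhosis and 119670 to 212880 FPM under eplerenone.

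The promoters of Mat1a and Mat2a are shown because the balance between these genes was the main question. They are the 250 bases before the RefSeq start in assembly GRCr8, on the strand of the gene. Mat1a lies at chr16:17016918-17017167 on the plus strand and Mat2a at chr4:106053613-106053862 on the minus strand. Capitals mark matches on either strand to the letters of the TATA box, of the CCAAT box and of the GC box, and no match overlapped another. The letters searched were TATAAA for the first motif, CCAAT for the next motif and GGGCGG for the last motif.
Mat1a: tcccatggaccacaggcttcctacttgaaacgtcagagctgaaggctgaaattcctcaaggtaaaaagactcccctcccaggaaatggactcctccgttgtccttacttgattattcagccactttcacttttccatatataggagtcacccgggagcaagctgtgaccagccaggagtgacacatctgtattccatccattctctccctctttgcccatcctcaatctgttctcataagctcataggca
Mat2a: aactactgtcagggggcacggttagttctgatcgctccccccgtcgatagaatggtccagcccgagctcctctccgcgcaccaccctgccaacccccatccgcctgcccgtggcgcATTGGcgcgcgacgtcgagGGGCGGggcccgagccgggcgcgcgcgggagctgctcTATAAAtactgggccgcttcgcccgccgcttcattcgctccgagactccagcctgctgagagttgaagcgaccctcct
The Mat1a window had a GC content of 48.0% with 3 CpG dinucleotides and held none of the 3 letter strings. The Mat2a window had a GC content of 67.6% with 29 CpG dinucleotides, and carried the TATA box 78 bases, the GC box 115 bases and the CCAAT box, on the opposite strand, 134 bases before the start. Over 33469 windows of the same length the median GC content was 51.2% with 5 CpG dinucleotides, and the TATA box was found in 12.9%, the CCAAT box in 34% and the GC box in 30.5% of them, both strands counted. These matches describe the letters only.

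In cirrhosis no gene of the methionine cycle passed the test against control, although 6 of the 8 genes had a lower fitted level. The largest differences were in Bhmt, Gnmt and Ahcy, with fitted log2 fold changes of -1.09, -0.94 and -0.63. Under eplerenone none of the 8 genes passed the test against cirrhosis either, and Mat1a, at 1.59-fold the level of cirrhosis, had the largest difference. The Mat1a to Mat2a ratio was 0.624-fold that of control in cirrhosis and 1.45-fold that of cirrhosis under eplerenone, and neither difference passed the exact test. In the quasi-likelihood test of edgeR, with p-values adjusted across the whole set of 14417 genes after Benjamini-Hochberg, 0 of 8 members were called at an FDR below 0.05 between control and cirrhosis, where 20.2% of all genes were called. Between cirrhosis and cirrhosis & eplerenone 0 of 8 members and 0.0139% of all genes were called, and between control and cirrhosis & eplerenone 0 of 8 members and 5.22% of all genes. The call counts over all genes depended on the 2 libraries that stood apart. Without them edgeR called 1294 of 14126 genes and 0 members between cirrhosis and cirrhosis & eplerenone. Between control and cirrhosis it then called 4832 genes and 1 member. These libraries were singled out on the same data, so these counts are a description. At an unadjusted p below 0.05 the members numbered 2, 1 and 0 in the 3 comparisons by edgeR, beside 37.1%, 14.4% and 20.5% of all genes. No member separated the groups completely under eplerenone, against cirrhosis or against control, as 0.964% and 10.9% of all genes did. DESeq2 also called 0 of 8 members in each comparison, beside 27.8%, 0.513% and 10.6% of all genes, with 2, 1 and 1 members at an unadjusted p below 0.05. The median log2 fold change of the members was -0.47, 0.19 and -0.28 in the 3 comparisons, beside -0.01, 0.01 and 0.01 over all genes tested. Comparisons that share a group of rats are not independent of each other. In these bulk samples fewer cells of a type and less RNA per cell cannot be told apart.

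**Figure D1:**
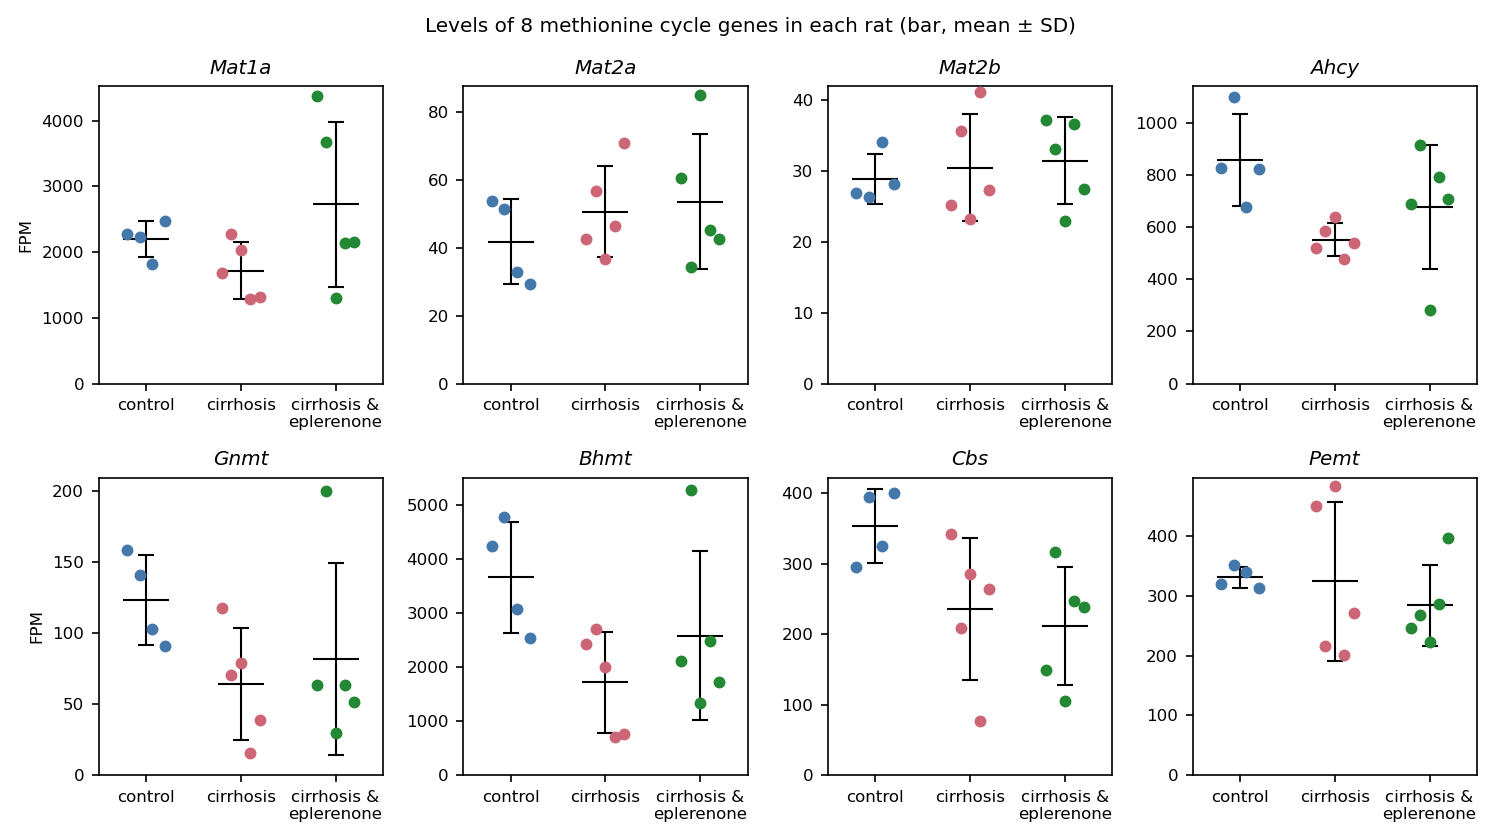
Level in FPM (y axis, from 0) of each methionine cycle gene in every rat of the 3 groups (points), with the mean and SD (bars; n = 4 control, 5 cirrhosis, 5 cirrhosis & eplerenone). Ahcy is the gene whose cirrhosis livers, at 477 to 640 FPM, all lie below the controls, at 679 to 1102 FPM, whereas the other genes overlap between control and cirrhosis.

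Mat1a (ENSRNOG00000011351, chromosome 16) encodes the catalytic subunit of the liver enzyme. Its level was 2283, 2234, 1821 and 2477 FPM in control replicates 2 to 5. In cirrhosis replicates 1 to 5 it was 1683, 2269, 2035, 1283 and 1310 FPM. Under eplerenone it was 4375, 3679, 1309, 2142 and 2152 FPM in replicates 1 to 5. Cirrhosis replicates 1, 4 and 5 lay below every control while replicates 2 and 3 lay within their range, and eplerenone replicates 1 and 2 exceeded all other livers of the series whereas replicate 3 was as low as the lowest cirrhosis livers. The means were 2204 ± 276 (SD, n = 4), 1716 ± 436 (n = 5) and 2731 ± 1255 FPM (n = 5). Its log2 fold change was -0.36 between control and cirrhosis (SE 0.31, 95% confidence interval -1.03 to 0.31, edgeR adjusted p = 0.408). Between cirrhosis and cirrhosis & eplerenone it was 0.67 (SE 0.30, interval 0.04 to 1.30), with an unadjusted p of 0.0392 and an adjusted p of 0.33 by edgeR, and without eplerenone replicate 1 it was 0.42. Without the 2 libraries that stood apart it was 0.74, with an adjusted p of 0.0844 by edgeR. Against control the eplerenone group differed by 0.31 (SE 0.32, interval -0.36 to 0.98, edgeR adjusted p = 0.655).

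Mat2a (ENSRNOG00000013520, chromosome 4) encodes the catalytic subunit used outside the adult hepatocyte. Control livers had 53.7, 51.2, 32.7 and 29.2 FPM. Cirrhosis livers had 42.6, 56.6, 36.6, 46.4 and 70.8 FPM. Livers under eplerenone had 60.5, 34.4, 84.8, 45.2 and 42.5 FPM. The 3 groups overlapped, and the highest values belonged to cirrhosis replicate 5 and eplerenone replicate 3, the libraries that stood apart on the first principal component. Group means were 41.7 ± 12.5, 50.6 ± 13.5 and 53.5 ± 19.9 FPM (SD, n = 4, 5 and 5). The log2 fold change of 0.28 between control and cirrhosis (SE 0.28, interval -0.31 to 0.87, edgeR adjusted p = 0.47) was within its error. So was that of 0.08 between cirrhosis and cirrhosis & eplerenone (SE 0.26, interval -0.47 to 0.63, edgeR adjusted p = 0.887), which turned to -0.01 without the 2 libraries and to -0.17 without eplerenone replicate 3 alone. Without cirrhosis replicate 3 alone it was -0.02.

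Mat2b (ENSRNOG00000003177, chromosome 10), the regulatory partner of the Mat2a product, had the narrowest intervals of the 8 genes in all 3 comparisons. It ranged from 26.3 to 34.1 FPM in control, from 23.2 to 41.1 FPM in cirrhosis and from 23.0 to 37.2 FPM under eplerenone. Its log2 fold change was 0.08 in cirrhosis against control (interval -0.34 to 0.50), 0.05 under eplerenone against cirrhosis (interval -0.35 to 0.44) and 0.13 under eplerenone against control (interval -0.29 to 0.54). The direction between cirrhosis and cirrhosis & eplerenone changed when cirrhosis replicate 1 or 3 or eplerenone replicate 1 or 4 was left out, and that between control and cirrhosis without cirrhosis replicate 4.

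The balance of both catalytic genes was taken in each rat as the ratio of Mat1a to Mat2a counts. Since counts are not corrected for gene length, the ratio is read between rats and not as the relative abundance of the transcripts. It was 42.5, 43.6, 55.6 and 84.8 in control replicates 2 to 5. In cirrhosis replicates 1 to 5 it was 39.5, 40.1, 55.6, 27.7 and 18.5. Under eplerenone it was 72.3, 106.8, 15.4, 47.4 and 50.6. Cirrhosis replicates 1, 2, 4 and 5 lay below the lowest control and replicate 3 lay among the controls, while eplerenone replicate 2 had the highest and replicate 3 the lowest ratio of the 14 livers. On the log2 scale the control mean was 5.76 ± 0.46 (SD, n = 4), the cirrhosis mean 5.08 ± 0.61 (n = 5) and the eplerenone mean 5.62 ± 1.04 (n = 5). The difference of -0.68 between control and cirrhosis had p = 0.0952 in a two-sided exact permutation test, and 0.286 after adjustment over the 3 comparisons. The difference of 0.53 between cirrhosis and cirrhosis & eplerenone had p = 0.341 (exact permutation test, adjusted p = 0.512), and that of -0.15 between control and cirrhosis & eplerenone p = 0.833. The smallest p these group sizes allow is 0.00794.

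The ratio depended on single livers. Cirrhosis replicate 3 was the only cirrhosis liver not below the lowest control, so leaving it out separated the remaining livers completely. Cirrhosis minus control was then -0.86 on the log2 scale. The exact permutation p of 0.0286 is the smallest those reduced group sizes allow. It is fixed by which liver was left out and is no further test. Leaving out eplerenone replicate 3 gave 0.95 for eplerenone against cirrhosis, with an exact permutation p of 0.0476. Neither p was adjusted. Without eplerenone replicate 3 the eplerenone group lay 0.27 above control, and without control replicate 5 it lay 0.07 above. The CCl4 rats carry a prefix of 15 or 20 in their labels and the controls one of 13 or 16, and what the prefix stands for is not given in the sources used here, so prefix and CCl4 cannot be told apart. Among CCl4 rats the log2 ratio under eplerenone was higher by 0.98 within prefix 15 (3 cirrhosis and 2 eplerenone livers) and by 0.56 within prefix 20 (2 and 3 livers). Permuting within the prefixes gave a difference of 0.77 with an exact permutation p of 0.08. Within cirrhosis the ratio was 39.5, 40.1 and 55.6 in prefix 15 and 27.7 and 18.5 in prefix 20. Cirrhosis means in prefixes 15 and 20 were 2375 and 731 FPM for Bhmt and 88.9 and 27.0 FPM for Gnmt. Mat1a, Bhmt and Gnmt did not overlap between the prefixes in cirrhosis, while Mat2a, Mat2b, Ahcy, Cbs and Pemt did. The part of the prefix in the difference from control was not tested. For the gene Mat1a, the eplerenone livers of prefix 15 were above all cirrhosis livers of that prefix, with means of 4027 and 1996 FPM, while those of prefix 20 overlapped, with means of 1868 and 1297 FPM. The eplerenone livers also lay above the cirrhosis livers for Ahcy within prefix 15, with means of 804 and 582 FPM. The same held for Bhmt within prefix 20, with means of 1840 and 731 FPM, while the other members overlapped within both prefixes. The share of all genes that separate in this way, between or within the prefixes, was not counted. With so few livers on each side these separations are a description.

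**Figure D2:**
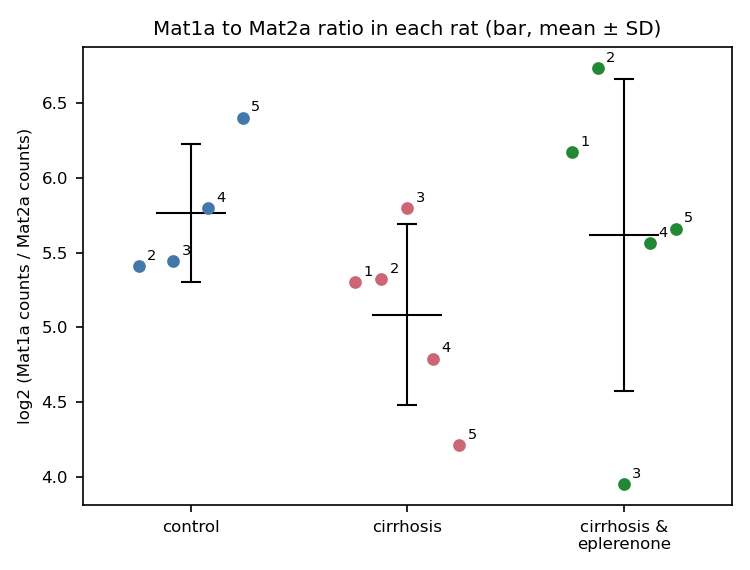
Log2 ratio of Mat1a to Mat2a counts (y axis) in each rat of the 3 groups, labelled with its replicate number; bars show the mean and SD. The cirrhosis mean of 5.08 lies below the control mean of 5.76 with overlapping rats, and the eplerenone livers spread from 3.95 in replicate 3 to 6.74 in replicate 2.

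Ahcy (ENSRNOG00000017777, chromosome 3) encodes the hydrolase that removes SAH, the product that inhibits methyltransferases. Its level was 828, 1102, 679 and 823 FPM in control. In cirrhosis it was 520, 587, 640, 477 and 540 FPM. Under eplerenone it was 690, 918, 282, 793 and 709 FPM. All cirrhosis livers lay below all controls, which was the case in either direction for 20.2% of all genes tested, and 4 of the 5 eplerenone livers lay above every cirrhosis liver while replicate 3 had the lowest value of the series. The log2 fold change in cirrhosis was -0.63 (SE 0.27, interval -1.21 to -0.05), with an unadjusted p of 0.034 and an adjusted p of 0.105 by edgeR. The adjusted p was 0.0451 when only control and cirrhosis were fitted, 0.0267 without eplerenone replicate 3 and 0.0266 without both libraries that stood apart. These were the settings in which a member was called, with log2 fold changes of -0.62, -0.61 and -0.61. Under eplerenone the log2 fold change was 0.30 against cirrhosis (SE 0.26, interval -0.25 to 0.84, edgeR adjusted p = 0.563).

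Gnmt (ENSRNOG00000016349, chromosome 9) encodes glycine N-methyltransferase, an abundant hepatocyte enzyme that spends SAM on glycine. Control livers had 159, 141, 103 and 90.8 FPM. Cirrhosis livers had 118, 70.1, 78.7, 15.2 and 38.7 FPM. Livers under eplerenone had 63.6, 200.3, 29.3, 63.1 and 51.8 FPM. Cirrhosis replicate 4 was the lowest liver of the series and eplerenone replicate 2 the highest, and the highest cirrhosis liver was 7.76-fold above the lowest, compared with 1.75-fold in control. Gnmt had a log2 fold change of -0.94 in cirrhosis (SE 0.53, interval -2.07 to 0.18, edgeR adjusted p = 0.203) and 0.35 under eplerenone against cirrhosis (SE 0.50, interval -0.72 to 1.41, edgeR adjusted p = 0.738). Without eplerenone replicate 2 the latter was -0.30.

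Pemt (ENSRNOG00000054423, chromosome 10) encodes the enzyme that makes phosphatidylcholine with 3 methyl groups from SAM. Its controls were tightly grouped at 321, 351, 340 and 313 FPM. The cirrhosis livers lay on both sides of them, at 450, 217, 484, 200.5 and 271 FPM. Under eplerenone the values were 246, 268, 222, 286 and 398 FPM. The coefficient of variation was 5.25% in control, 41.1% in cirrhosis and 23.9% under eplerenone, while the fitted log2 fold change in cirrhosis was -0.03 (SE 0.27, interval -0.60 to 0.54). With library sizes taken as total counts it was 0.22, and its direction also changed in other settings.

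Bhmt (ENSRNOG00000011200, chromosome 2) encodes the enzyme that remethylates homocysteine with betaine, a pathway found mainly in liver and kidney. Control livers had 4244, 4781, 3078 and 2532 FPM. Cirrhosis livers had 2429, 2702, 1993, 709 and 752 FPM. Livers under eplerenone had 2105, 5281, 1324, 2473 and 1723 FPM. Cirrhosis replicates 1, 3, 4 and 5 were below every control and replicate 2 overlapped with the lowest control, and replicates 4 and 5 were the lowest livers of the series. The log2 fold change in cirrhosis was -1.09 (SE 0.45, interval -2.06 to -0.13), the largest in size among the members, with an unadjusted p of 0.0291 and an adjusted p of 0.0944 by edgeR. Under eplerenone it was 0.59 against cirrhosis (SE 0.43, interval -0.33 to 1.502, edgeR adjusted p = 0.496), and it was 0.15 without eplerenone replicate 2 and 0.38 without cirrhosis replicate 4. Reads with more than 1 mapping position were kept in the counts, so reads shared by Bhmt and its paralog Bhmt2 may be in both counts.

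Cbs (ENSRNOG00000029528, chromosome 20) encodes cystathionine beta-synthase, which commits homocysteine to cysteine. Control livers had 295, 394, 325 and 400.4 FPM. Cirrhosis livers had 343, 208, 285, 76.6 and 265 FPM. Under eplerenone the values were 149, 317, 105, 247 and 239 FPM. Cirrhosis replicate 1 and eplerenone replicate 2 were within the control range and all other CCl4 livers below it. The log2 fold change was -0.59 in cirrhosis (SE 0.36, interval -1.36 to 0.18, edgeR adjusted p = 0.246). Under eplerenone it was -0.74 against control (SE 0.36, interval -1.51 to 0.03), with an unadjusted p of 0.0585 and an adjusted p of 0.266 by edgeR. Cbs and Pemt were the members with a negative log2 fold change under eplerenone against cirrhosis, at -0.15 and -0.19. That of Cbs changed its direction without both libraries that stood apart (0.04), without eplerenone replicate 3 (0.0009) and without cirrhosis replicate 1 (0.01).

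**Figure D3:**
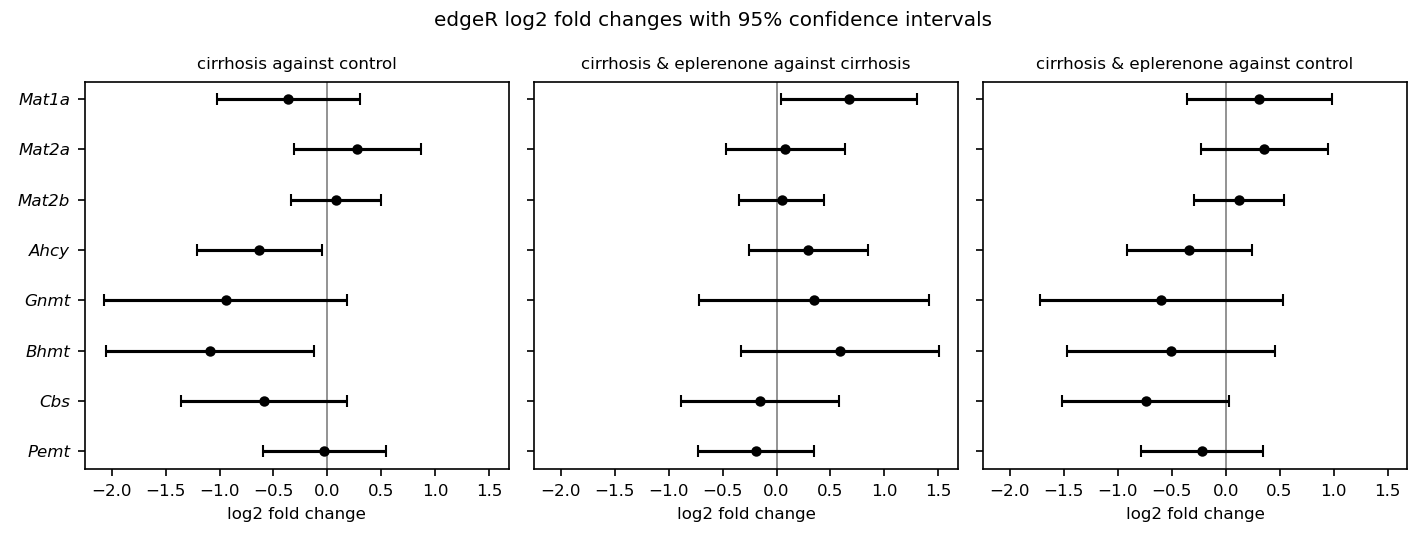
Fitted edgeR log2 fold changes (points) of the methionine cycle genes with 95% confidence intervals (bars) in the 3 comparisons; the x axis is log2 and the grey line marks no difference. In cirrhosis against control the intervals of Ahcy (-1.21 to -0.05) and Bhmt (-2.06 to -0.13) leave out 0, as does that of Mat1a under eplerenone against cirrhosis (0.04 to 1.30), and none of the 3 passed the adjusted test.

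Several members were high or low in the same rats. Cirrhosis replicate 4 was the lowest of its group for Mat1a, Ahcy, Gnmt, Bhmt, Cbs and Pemt and the highest for Mat2b, and for 5 of the members it was the lowest of all 14 livers. Over all genes tested, 16.0% were at their lowest of the group in this rat. Cirrhosis & eplerenone replicate 3 was the lowest of its group for 7 of the 8 members and the highest for the remaining member, Mat2a, while 26.3% of all genes were lowest and 25.6% highest in it. Cirrhosis & eplerenone replicate 2 was the highest for Ahcy, Gnmt, Bhmt and Cbs and the lowest for Mat2a, where 24% of all genes were highest. The members share their libraries and their scaling, so these orders are a description. The coefficient of variation was larger in cirrhosis than in control for 6 of 8 members, compared with 72.4% of all genes, and larger under eplerenone than in control for 8 of 8 members, compared with 69.5%. Its median over the members was 17.7% in control, 33.8% in cirrhosis and 38.4% under eplerenone, beside 20.4%, 33.0% and 29.5% over all genes.

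**Figure D4:**
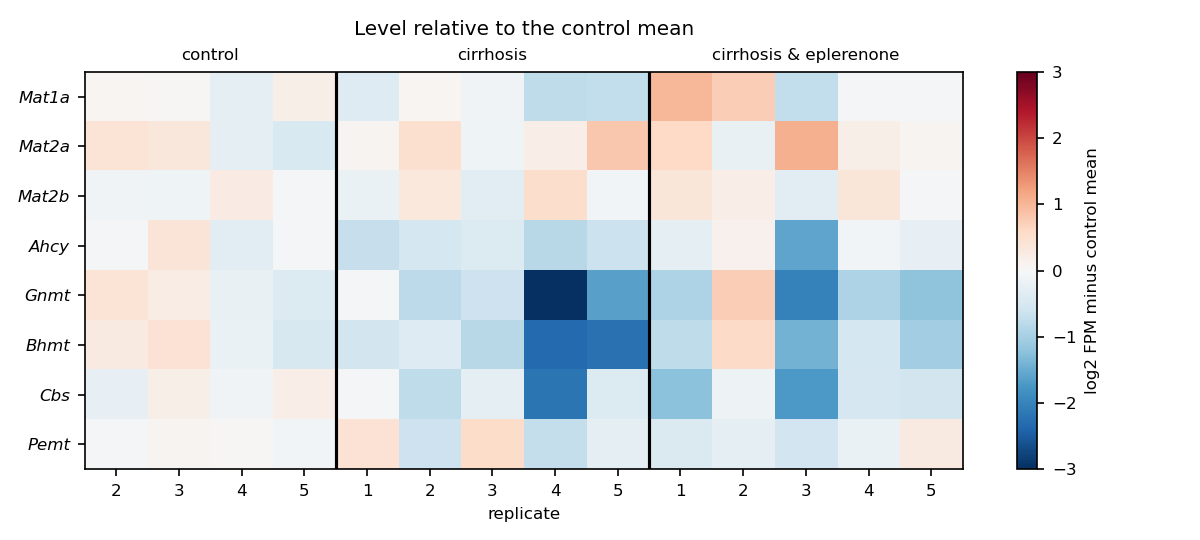
Log2 level of the methionine cycle genes (rows) in each rat (columns, grouped and numbered by replicate) minus the mean of the controls; red is higher and blue lower than control, on the scale at the right. Cirrhosis replicate 4 and cirrhosis & eplerenone replicate 3 are blue for Ahcy, Gnmt, Bhmt and Cbs, whereas Mat2a is red in cirrhosis & eplerenone replicate 3.

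Markers of other cells were compared by list between control and cirrhosis, where edgeR called 20.2% of all genes. All 5 cholangiocyte markers were called higher in cirrhosis, with a summed level of 13.9 to 22.3 FPM in control, 41.5 to 134 FPM in cirrhosis and 44.4 to 85.4 FPM under eplerenone. Of 7 stellate cell and myofibroblast markers 5 were called higher, with sums of 144 to 242, 260.1 to 538 and 389.8 to 532 FPM. Lrat, 1 of the 7, had a log2 fold change of -1.09 and was not called. Of 6 proliferation markers 5 were called higher, with sums of 21.8 to 31.6, 50.3 to 106 and 19.1 to 81.4 FPM, and the highest eplerenone value was that of replicate 3. Of 5 lymphocyte markers Cd3e, Cd3g and Ptprc were called higher, with sums of 5.32 to 13.6, 16.8 to 23.6 and 12.6 to 30.0 FPM. Of 4 endothelial markers Kdr was called lower (log2 fold change -1.10, edgeR adjusted p = 0.00754), with sums of 135 to 168, 49.5 to 163 and 109 to 151 FPM. Stab2 (-0.99), Lyve1 (-0.49) and Cdh5 (0.008) were not called. Of 6 macrophage markers 3 had a positive and 3 a negative log2 fold change, and the sums were 187 to 327, 85.1 to 307 and 136 to 376 FPM. Cd163 was called lower (log2 fold change -1.22, edgeR adjusted p = 0.0163), and Marco (-0.64) and Clec4f (-1.09) were not called. Cd68 (0.74), Csf1r (0.59) and Adgre1 (0.34) were not called by edgeR, and Cd68 was called higher by DESeq2 (adjusted p = 0.0292). None of the 9 hepatocyte markers was called by edgeR in cirrhosis, 5 had an unadjusted p below 0.05 and were called by DESeq2 (Ttr, Apob, Fgb and Apoh lower, Tf higher), and their median log2 fold change was -0.52. The part of these cell types in the members' levels was not tested. Expressed relative to the mean log2 level of the hepatocyte markers in the same rat, the difference between control and cirrhosis was -0.18 for Mat1a, 0.50 for Mat2a, -0.41 for Ahcy, -0.99 for Gnmt and -1.06 for Bhmt, and all groups overlapped, Ahcy included. The difference between cirrhosis and cirrhosis & eplerenone for Mat1a was 0.72 on that scale. With total counts as library sizes the median of all genes moved to 0.28 in cirrhosis and 0.32 under eplerenone against control, and Mat1a was then at -0.07 and 0.59 and Mat2a at 0.57 and 0.75. By that scaling 89.3% of the genes called in cirrhosis were higher, compared with 66.7% by TMM, and 94.9% compared with 82.9% under eplerenone against control.

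The wider pathway was followed with lists of genes that supply, spend or regenerate SAM, 76 of which were tested with the members included. In cirrhosis against control 4 genes were called higher, beside 13.4% of all genes, and 8 lower, beside 6.71%. None was called between cirrhosis and cirrhosis & eplerenone by edgeR, where 8 had an unadjusted p below 0.05, beside 14.4% of all genes. DESeq2 called 17 of the 76 genes in cirrhosis, 7 under eplerenone against control and 1 under eplerenone against cirrhosis, beside 27.8%, 10.6% and 0.513% of all genes. The last was Sat1, which acetylates spermidine and spermine, with an edgeR log2 fold change of -0.77 (SE 0.18), an edgeR adjusted p of 0.312 and a DESeq2 adjusted p of 0.0194; it is named after its values were seen. In cirrhosis & eplerenone against control 1 gene was called higher, beside 4.33% of all genes, and 3 lower, beside 0.895%. The median log2 fold change of the 76 genes was -0.34, 0.08 and -0.22 in the 3 comparisons.

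Among the genes that spend SAM, 1 of 8 was called in cirrhosis, beside 20.2% of all genes. Inmt, which encodes indolethylamine N-methyltransferase, had 128.9, 49.4, 28.2 and 20.2 FPM in control. The cirrhosis livers had 1.05, 0.33, 0.16, 0 and 0.18 FPM, where 3 counts stand for up to 0.179 FPM in this group. Under eplerenone the values were 0.97, 52.9, 0, 4.74 and 2.40 FPM. Every cirrhosis liver was below every control, where 20.2% of all genes did not overlap in either direction. Eplerenone replicate 2 alone of the CCl4 rats reached the control range (edgeR adjusted p = 0.00463 in cirrhosis against control). Under eplerenone against cirrhosis its edgeR adjusted p was 0.312. The list named for SAH hydrolysis held 4 genes: Ahcy, its paralogs Ahcyl1 and Ahcyl2, and Adk, the adenosine kinase. The 2 paralogs are not taken here as SAH hydrolases, so the list is not a measure of that step. By edgeR 0 of the 4 were called, and Adk was called by DESeq2. All 4 had a negative log2 fold change of -0.87 to -0.41 with an unadjusted edgeR p below 0.05, as had 37.1% of all genes in either direction. Under eplerenone against cirrhosis the 4 values were positive, at 0.23 to 0.60. None was called by edgeR, beside 0.0139% of all genes, or had an unadjusted edgeR p below 0.05, beside 14.4%.

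In the list for homocysteine remethylation and the folate cycle 1 of 17 genes was called higher and 3 lower in cirrhosis, beside 13.4% and 6.71% of all genes. Slc46a1, the proton-coupled folate transporter, fell from a range of 78.8 to 101.8 FPM in control to one of 14.2 to 51.1 FPM in cirrhosis, by 1.87 on the log2 scale (SE 0.42, edgeR adjusted p = 0.00804), and cirrhosis replicate 5 was the highest of its group. It was also lower under eplerenone against control (11.5 to 59.0 FPM), by a log2 fold change of -1.61 (SE 0.42, edgeR adjusted p = 0.0364). Bhmt2, which methylates homocysteine from S-methylmethionine, fell from a range of 646 to 758 FPM in control to one of 283 to 451 FPM in cirrhosis, a log2 fold change of -0.82 (SE 0.22, edgeR adjusted p = 0.0185). Mthfd1l, a mitochondrial folate enzyme, rose from a range of 0.06 to 0.64 FPM in control to one of 1.22 to 4.92 FPM in cirrhosis, a log2 fold change of 2.66 (SE 0.72, edgeR adjusted p = 0.0197), with the lowest control value below the level of 3 counts. Mthfs, named after its values were seen as the remaining gene of this count, had a log2 fold change of -0.55 (SE 0.18, edgeR adjusted p = 0.0438).

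The list for choline and betaine had 7 genes with negative log2 fold changes in cirrhosis, of -1.0 to -0.45, where 7313 of all 14417 genes were negative. It is wider than the supply of betaine to Bhmt, since it also holds Chka and Pcyt1a and enzymes that act after Bhmt. By edgeR 1 of the 7 was called, beside 20.2% of all genes. Dmgdh, the dimethylglycine dehydrogenase that acts on the product of Bhmt, was the gene called, falling from a range of 409.8 to 613 FPM in control to one of 148 to 297 FPM in cirrhosis (log2 fold change -1.0, SE 0.34, edgeR adjusted p = 0.0494). In transsulfuration and cysteine use 1 of 11 genes was called higher and 1 lower, beside 13.4% and 6.71% of all genes. Cdo1, the cysteine dioxygenase, fell from a range of 1336 to 1481 FPM to one of 364 to 982 FPM (log2 fold change -1.17, SE 0.36, edgeR adjusted p = 0.033). Gss, the glutathione synthetase, rose from a range of 36.6 to 50.0 FPM to one of 64.3 to 105 FPM (log2 fold change 0.96, SE 0.29, edgeR adjusted p = 0.031). For both genes control and cirrhosis did not overlap, which was the case in either direction for 20.2% of all genes. The livers under eplerenone ranged from 362 to 1489 FPM for Cdo1 and from 29.8 to 111 FPM for Gss, across control and cirrhosis.

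Polyamine synthesis draws on decarboxylated SAM, and methionine salvage returns its sulfur to methionine. Of these 12 genes 1 was called higher and 1 lower in cirrhosis, beside 13.4% and 6.71% of all genes. Odc1, the ornithine decarboxylase, rose from a range of 39.7 to 64.0 FPM in control to one of 64.0 to 149.5 FPM in cirrhosis, a log2 fold change of 1.12 (SE 0.24, edgeR adjusted p = 0.00612), with cirrhosis replicate 5 at the level of the highest control. Adi1, which acts in the salvage pathway, fell from a range of 183 to 214 FPM to one of 89.9 to 136 FPM, a log2 fold change of -0.79 (SE 0.20, edgeR adjusted p = 0.0147), and was at 72.7 to 157 FPM under eplerenone (log2 fold change -0.76 against control, SE 0.20, edgeR adjusted p = 0.0401). The 6 genes of vitamin B12 handling had no edgeR call in cirrhosis, beside 20.2% of all genes. Their log2 fold changes were -0.43 to 0.35, with 1 unadjusted edgeR p below 0.05, beside 37.1% of all genes.

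**Figure D5:**
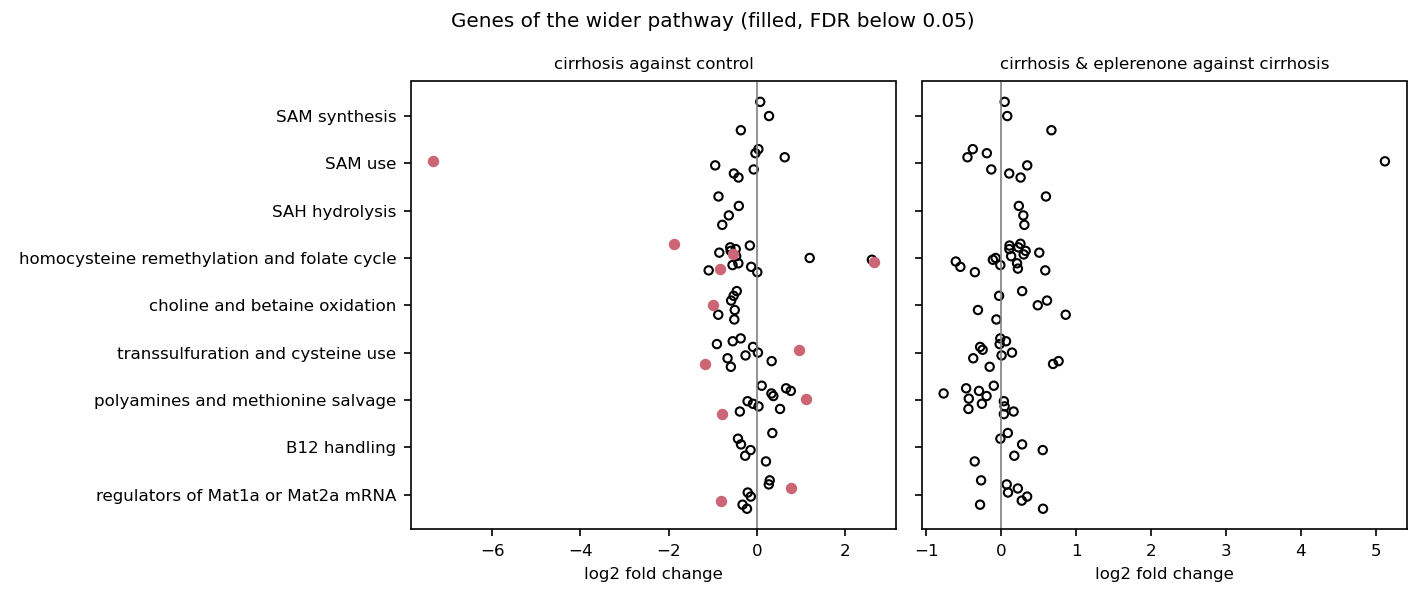
Fitted log2 fold changes (x axis, different range in each panel) of the genes in each list (rows) for cirrhosis against control and for cirrhosis & eplerenone against cirrhosis; filled points have an edgeR adjusted p below 0.05. Filled points, 4 higher and 8 lower, appear in cirrhosis against control, with Inmt at -7.35, and none under eplerenone against cirrhosis, where Inmt lies at 5.12; the position of Inmt depends on the prior count because its cirrhosis livers were near 0.

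The 8 genes known to act on Mat1a or Mat2a transcription or mRNA were examined next. Hnf4a, a transcription factor of differentiated hepatocytes, fell from a range of 331 to 661 FPM in control to one of 220.5 to 374 FPM in cirrhosis, by 0.81 on the log2 scale (SE 0.24, edgeR adjusted p = 0.029), with replicate 5 overlapping the lowest control. Mafk, a small Maf protein, rose from a range of 11.5 to 17.7 FPM to one of 17.9 to 32.1 FPM in cirrhosis (log2 fold change 0.79, SE 0.21, edgeR adjusted p = 0.021) and to one of 23.9 to 38.7 FPM under eplerenone (log2 fold change 1.01 against control, SE 0.22, edgeR adjusted p = 0.0151). The other 6 were not called in cirrhosis, where 20.2% of all genes were called. Mettl16, which methylates the Mat2a mRNA, was at 5.98 to 6.88 FPM in control and 5.29 to 11.3 FPM in cirrhosis (log2 fold change 0.27, SE 0.22). Elavl1 and Hnrnpd, RNA-binding proteins, had log2 fold changes of -0.32 (SE 0.20) and -0.14 (SE 0.19), Mafg of -0.20 (SE 0.20), Myc of 0.29 (SE 0.58, -0.02 without control replicate 4) and Cebpa, another hepatocyte factor, of -0.22 (SE 0.34). With total counts as library sizes Hnrnpd (0.18), Mafg (0.10) and Cebpa (0.04) changed their direction. Between cirrhosis and cirrhosis & eplerenone 0 of the 8 genes were called by edgeR, beside 0.0139% of all genes. By the same test 0 of the 8 had an unadjusted p below 0.05, beside 14.4% of all genes.

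The genes most like Mat1a and Mat2a were found among 13627 protein coding genes by the smallest root mean square difference of centred log2 FPM over the 14 livers. For Mat1a, whose own SD on this scale was 0.50, they were Sorbs3, Nudt4, Dsp, Fbxo28 and Lrp3, with differences of 0.26 to 0.29. Each of the 5 had a negative log2 fold change in cirrhosis, of -0.60 to -0.18, and a positive one under eplerenone against cirrhosis, of 0.28 to 0.59, and none was called. For Mat2a, with an SD of 0.42, they were Prkab2, Adamts10, Golt1b, Zfp61 and Foxk2, with differences of 0.23 to 0.25. Of these, 4 had a positive log2 fold change in cirrhosis and Zfp61 one of -0.01, and none was called. The genes were chosen on the same 14 livers, so these values describe the choice.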

How the data were processed

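Liver RNA of 14 rats was analysed. Poly(A) libraries were read as pairs of 150 bp from RNA with an integrity number above 7. The authors mapped the reads to rn6 with HISAT2 2.1.0, counted them over exons with featureCounts 2.0.0, including reads with several positions, and took names with biomaRt 2.44.4 from Ensembl archive 101. The strand setting is not given in the sources used here. The deposited values are raw counts per gene. Members and lists were chosen with earlier results of these data known.

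Genes were filtered with filterByExpr (smallest count 10), scaled by TMM and fitted with the 3 groups in 1 model in edgeR 4.0.16 (R 4.3.3). P-values were adjusted over 14417 genes and called at an FDR below 0.05. DESeq2 1.42.0 was an alternative. The log2 ratio used counts plus 0.5, with exact permutation tests over rats. Named genes are the members, up to 4 called genes of each list with the largest change, 8 regulators, and 5 genes most like Mat1a and Mat2a. Values of 1 gene that this selection names are not reported here. Scripts were tested on simulated data. Other filters, scalings, fits, pseudocounts and left-out samples were tried. Gene lengths were not used here, so levels are not compared between genes.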

Additional observations from a re-analysis of the deposited data

Results flagged for a closer look

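In 81 groups of values (members, ratio and named pathway genes in each group of rats), a rat far from the others of its group was found 4 times, as often as 1 in 20 would give by chance (4.05). Gnmt was at 200.3 FPM in cirrhosis & eplerenone replicate 2, while the other livers of that group had 29.3 to 63.6 FPM. Inmt was at 52.9 FPM in the same rat, with 0 to 4.74 FPM in the others. Slc46a1 was at 51.1 FPM in cirrhosis replicate 5, compared with 14.2 to 22.0 FPM in the other cirrhosis livers. Hnrnpd was at 52.9 FPM in control replicate 4, compared with 41.8 to 43.5 FPM.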

How the results depend on the processing

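Of 560 values of the members under alternatives, 534 kept their direction and side of the threshold, 3 passed it, all for Ahcy in cirrhosis, and 23 changed direction; Mat1a, Ahcy and Bhmt were not among the 5 members whose direction changed. The count of members called in cirrhosis was 1 with only control and cirrhosis fitted and 1 without cirrhosis replicate 5 and cirrhosis & eplerenone replicate 3, and 0 to 1 when each sample was left out; in the other comparisons it was 0 to 0. The ratio differed by -0.86 to -0.46, 0.25 to 0.95 and -0.43 to 0.27 in the 3 comparisons when samples were left out, and by 0.27 between control and cirrhosis & eplerenone without both libraries. Pemt in cirrhosis turned to 0.22 with total counts, 0.0269 with at least 10 counts in every sample, 0.0506 without both libraries and 0.0838 relative to the hepatocyte markers, a scale chosen after seeing the data; under eplerenone it turned to 0.0127 against cirrhosis on that scale, and to 0.0701 (total counts) and 0.10 (hepatocyte markers) against control. Without both libraries Mat2a turned to -0.0139 and Cbs to 0.0441 under eplerenone against cirrhosis, and Cbs to 0.0403 relative to the hepatocyte markers. With total counts Hnrnpd turned to 0.18, Mafg to 0.10 and Cebpa to 0.0350 in cirrhosis. Leaving out samples gave -0.0337 to 0.17 for Mat2b, -0.22 to 0.12 for Pemt and -0.0202 to 0.81 for Myc in cirrhosis, and -0.17 to 0.23 for Mat2a, -0.0399 to 0.17 for Mat2b, -0.30 to 0.66 for Gnmt and -0.38 to 0.0066 for Cbs under eplerenone against cirrhosis. Ahcy under eplerenone against cirrhosis was 0.16 without eplerenone replicate 2 and 0.47 without replicate 3, and Cbs in cirrhosis was -0.35 without cirrhosis replicate 4. The causes were not tested.

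In cirrhosis Inmt, Slc46a1, Odc1 and Adi1 stayed called in all 14 fits that left out a sample. Bhmt2 missed the threshold without control replicate 3, Mthfd1l without cirrhosis replicate 4 or control replicate 2 or 4, and Mafk without cirrhosis replicate 3 or control replicate 4 or 5. Hnf4a was called in 9, Gss in 7, Cdo1 in 6 and Dmgdh in 4 of the 14 fits, with adjusted p up to 0.0951, 0.0969, 0.0744 and 0.124. Hnf4a also missed it with total counts (0.0719), and Dmgdh with RLE size factors (0.0511), total counts (0.0786), no filter (0.0533) and at least 10 counts in every sample (0.0575). Under eplerenone against control Mafk was called in 12 and Slc46a1 and Adi1 in 6 of 14, with adjusted p up to 0.0675, 0.103 and 0.109, and Adi1 missed the threshold with total counts (0.0555) and with only these groups fitted (0.0537). Over all genes DESeq2 called 74 genes under eplerenone against cirrhosis compared with 2 by edgeR, and 1523 compared with 753 against control, and total counts gave 1351 there. The filter of at least 10 counts in every sample gave 377 there. Without both libraries that stood apart edgeR called 1294 genes under eplerenone against cirrhosis.

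Same-numbered rats did not deviate together (correlations -0.18 to 0.19 for cirrhosis against control, -0.33 to 0.16 for eplerenone against cirrhosis and -0.18 to -0.04 for eplerenone against control), so the numbers do not pair them. With the replicate number as a block 1743, 0 and 270 genes were called in cirrhosis against control, eplerenone against cirrhosis and eplerenone against control, and 0 members. The block took Bhmt2, Dmgdh, Cdo1, Gss, Mafk and Hnf4a in cirrhosis to adjusted p of 0.0522 to 0.0688, and Slc46a1, Adi1 and Mafk under eplerenone against control to 0.0683 to 0.089. The ratio differed by -0.73, 0.53 and -0.29.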
